A study of Homo sapiens with 4 samples.

Results

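The mitochondrial genes for cytochrome b (MT-CYB), 3 subunits of cytochrome c oxidase (MT-CO1, MT-CO2 and MT-CO3), the ATP synthase subunits MT-ATP6 and MT-ATP8 and both mitochondrial ribosomal RNAs (MT-RNR1 and MT-RNR2) were read out in C4-2 cells with and without β-hydroxybutyrate (BHB). C4-2 is an established prostate cancer line, a castration-resistant derivative of LNCaP, and BHB is the main circulating ketone body. The 8 genes were chosen by name, as the complex III, IV and V subunits and ribosomal RNAs of the heavy strand, and all 8 were found among the 59385 features of the table. C4-2 cells of both groups had been grown in RPMI with serum and antibiotics. Control cells were kept for 3 days in RPMI medium, and treated cells for 3 days in RPMI with 50 mM BHB. Each group had 2 libraries, made from total RNA with a stranded kit. Separate cultures for the replicates are not stated in the labels, and p-values thus reflect the spread of these 4 libraries, possibly a technical one. In bulk RNA, fewer cells or mitochondrial genomes and less RNA from each cannot be told apart.

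The human mitochondrial genome is a small circle transcribed from both strands into long precursors that are then cut into single RNAs, mostly at the transfer RNAs that lie between the other genes. Its proteins are all subunits of the respiratory chain and ATP synthase, and its ribosomal RNAs form the core of the mitochondrial ribosome that translates them. Mature ribosomal RNAs are known as the most abundant RNAs of mitochondria. Ketone bodies such as BHB are broken down to acetyl-CoA inside mitochondria and so feed this chain.

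Counts of the libraries lay between 2233711 and 2565080 in all, of which mitochondrial features held 1.05% to 2.17%. Among markers of the cells, counts listed under the luminal keratin KRT8 were 9221 to 12028 per library. EPCAM had 4 to 34, while KRT5, TP63, PTPRC, CD3E, LYZ, COL3A1, DCN and CDH5 were at 0 in every library, and KRT14, COL1A1, PECAM1 and VWF never passed 12. At this depth a 0 leaves room for a level of up to 1.17 to 1.34 CPM (counts per 1000000), by counting error alone. The strand setting of the counting is not given in the sources used here. Counts listed under a gene may therefore come from RNA of the other strand, and the values below describe counts under a name.

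Sequences are shown for the places where counting could move reads between these genes and other features. They are GENCODE release 29 transcripts on GRCh38, plus strand, 5′ to 3′. MT-ATP8 and MT-ATP6 share 46 bases, which are 22.2% of MT-ATP8 and 6.75% of MT-ATP6, and a read inside them belongs to both genes. The shared bases are in capitals in both of the following sequences, the whole MT-ATP8 gene (chrM:8366-8572) and the first 120 bases of MT-ATP6 (chrM:8527-8646).
MT-ATP8: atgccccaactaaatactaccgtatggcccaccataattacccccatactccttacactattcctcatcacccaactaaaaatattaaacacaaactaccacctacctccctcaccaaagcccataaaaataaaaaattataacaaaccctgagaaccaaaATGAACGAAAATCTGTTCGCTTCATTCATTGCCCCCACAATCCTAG
MT-ATP6: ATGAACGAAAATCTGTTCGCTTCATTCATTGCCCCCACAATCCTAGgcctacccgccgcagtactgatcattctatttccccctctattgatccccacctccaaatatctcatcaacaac

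Nuclear copies of mitochondrial DNA were the other possible source of shared reads. A copy of MT-ATP6 on chromosome 1, MTATP6P1, was 98.5% identical over 681 bases, with 10 mismatches and an identical run of up to 141 bases. The next pair shows the 120-base window in which these sequences differed most, at 4 bases given in capitals (chrM:8599-8718 and chr1:633768-633887).
MT-ATP6: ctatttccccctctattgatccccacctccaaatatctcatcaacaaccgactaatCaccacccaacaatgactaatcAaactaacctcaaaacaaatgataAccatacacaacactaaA
MTATP6P1: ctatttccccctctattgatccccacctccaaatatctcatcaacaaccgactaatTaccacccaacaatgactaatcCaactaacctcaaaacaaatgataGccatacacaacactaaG

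The annotated copy of MT-CYB with the highest alignment score, MTCYBP35 on chromosome 5, was less alike, with 86.0% identity over 1137 bases and a longest identical run of 32 bases. A shorter copy on the same chromosome, MTCYBP18, was 92.4% identical over 741 bases. In the window where this pair differed most, 24 of 120 bases differed (chrM:15354-15473 and chr5:94570147-94570266).
MT-CYB: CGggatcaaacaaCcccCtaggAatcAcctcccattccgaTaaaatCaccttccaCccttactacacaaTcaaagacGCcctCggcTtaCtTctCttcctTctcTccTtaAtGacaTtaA
MTCYBP35: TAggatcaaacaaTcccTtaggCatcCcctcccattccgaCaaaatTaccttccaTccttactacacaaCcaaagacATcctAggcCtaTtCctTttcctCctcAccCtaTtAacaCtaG

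The 8 genes fell into a range from none to many shared windows. For MT-CO1, 27.9% of all windows of 100 bases occurred unchanged in a transcript of another gene, on either strand. The share was 11.9% for MT-ATP6, 4.38% for MT-CO3 and 2.39% for MT-CO2. It was 0% for MT-CYB, MT-ATP8, MT-RNR1 and MT-RNR2. With windows of 50 bases it was 49.5% for MT-CO1, 46.7% for MT-ATP6, 30.6% for MT-CO3, 29% for MT-CO2, 14.0% for MT-RNR2, 8.23% for MT-ATP8, 1.19% for MT-CYB and 0% for MT-RNR1. The sources used here give neither the read length nor how multi-mapping reads were handled, so counts of the 7 genes with shared windows at either length, all but MT-RNR1, are uncertain in this respect. Only annotated transcripts were searched, not the whole nuclear genome.

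Per kilobase of the deposited length, MT-CO3 stood highest of the 8 genes in 3 of the 4 libraries and MT-RNR1 lowest in all 4. Levels here are CPM, scaled between libraries by the trimmed mean of M-values (TMM), per kilobase and averaged over the 4 libraries. MT-CO3 had 625, MT-ATP6 519, MT-CYB 492, MT-CO2 388, MT-CO1 337 and MT-RNR2 315. MT-ATP8 had 95.3 and MT-RNR1 16.3. From MT-CO3 to MT-RNR2 neighbours in this order overlapped between libraries. In control replicate 1 MT-CYB was the highest, at 470, ahead of MT-ATP6 at 437 and MT-CO3 at 408. MT-RNR2 ranked 6 of 8 in 3 libraries and 4 of 8 in BHB replicate 2. MT-ATP8 and MT-RNR1 came last, in that order, in every library.

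The 2 ribosomal RNAs differed widely from each other in level. Within a library, the count per kilobase of MT-RNR2 was 10.2 to 22.5 times that of MT-RNR1. MT-RNR2 nevertheless held 0.227 to 0.819 times the count per kilobase of MT-CYB. Whether ribosomal RNA was depleted is not given in the sources used here. MT-ATP6 held 4.57 to 6.71 times the count per kilobase of MT-ATP8, with which it shares its first bases.

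Some light-strand genes beside the 8 genes held far more counts per kilobase. MT-TS1, a serine transfer RNA gene that adjoins the end of MT-CO1 on the other strand, had 35.9 to 204 times the count per kilobase of MT-CO1. MT-TS1 is only 69 bases long, against 1542 for MT-CO1, and without division by length the ratio of counts was 1.61 to 9.13. MT-ND6, the light-strand protein gene on the other side of MT-TE from MT-CYB, had 18.6 to 22.1 times the count per kilobase of MT-CYB. MT-TE itself, a light-strand transfer RNA gene between them, was near MT-CYB, with means of 559 CPM per kilobase in controls and 491 with BHB, beside 415 and 568 for MT-CYB. Heavy-strand transfer RNA genes had 0 counts in every library for MT-TF, MT-TV, MT-TL1, MT-TK, MT-TG, MT-TR, MT-TH, MT-TS2 and MT-TL2. Counts of MT-TI, MT-TM, MT-TW, MT-TD and MT-TT never passed 13. Of the light-strand ones, MT-TS1 had 2635 to 5895 and MT-TY 1066 to 1472, while MT-TA had 0 to 3. Whether counts under the 8 names came from the other strand was not tested.

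**Figure D1:**
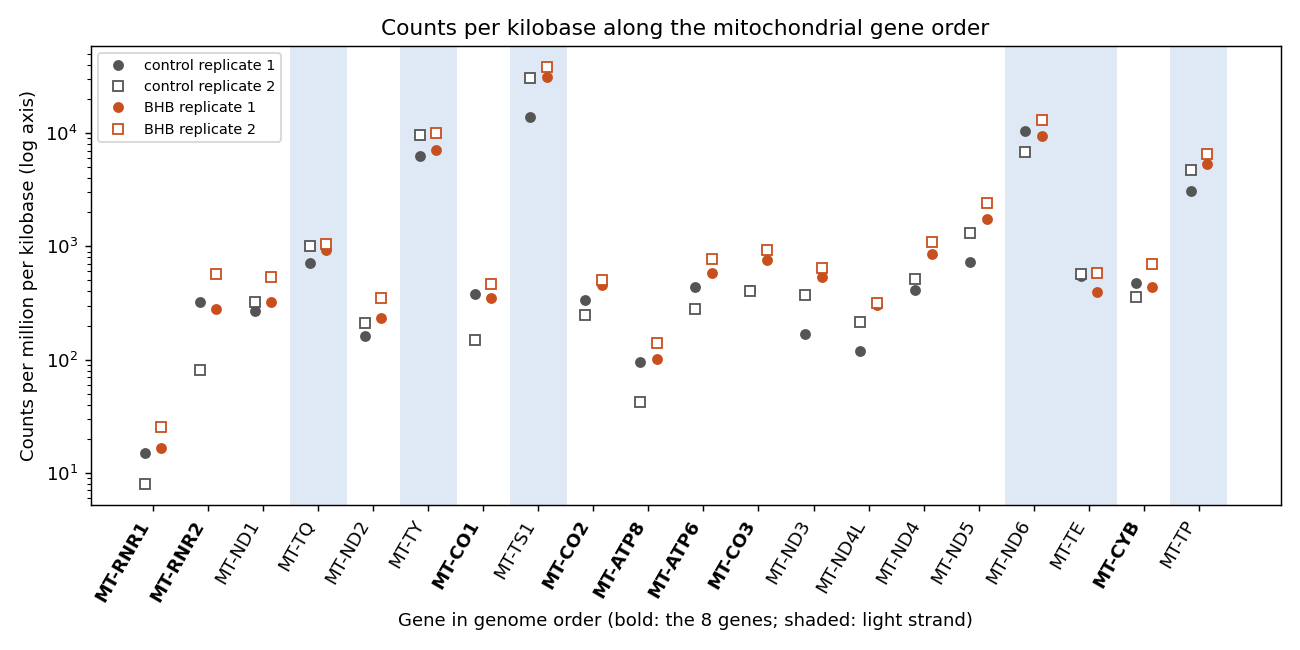
CPM per kilobase (TMM-scaled, log axis) in each library for the mitochondrial protein and ribosomal RNA genes and 5 light-strand transfer RNA genes in genome order, with the 8 genes in bold and light-strand genes shaded. Filled and open symbols are replicates 1 and 2. MT-TS1 and MT-ND6 stand far above their heavy-strand neighbours, and MT-RNR1 is lowest of the genes shown in every library.

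Scaled counts of all 8 genes were higher with BHB, by a fitted fold of 1.37 to 2.09, and none passed the test. The summed counts of the 8 genes were 6983 and 2867 for control replicates 1 and 2, against 6413 and 9022 for BHB replicates 1 and 2. As shares of the library these were 0.272% (95% Wilson interval 0.266 to 0.279), 0.128% (0.124 to 0.133), 0.282% (0.275 to 0.289) and 0.404% (0.396 to 0.412). Both BHB libraries lay above both controls, but control replicate 1 lay close under BHB replicate 1 and well over control replicate 2. The mean share was 0.200% ± 0.102 (SD, n = 2) in controls and 0.343% ± 0.0860 (SD, n = 2) with BHB. Intervals cover counting error only, not the spread between libraries. Without molecular identifiers reads cannot be counted as separate molecules, so even the counting error may be understated. An exact permutation test of 2 libraries against 2 cannot give a two-sided p below 0.333, so shares are described without a test.

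Gene by gene, BHB and control were compared by edgeR's quasi-likelihood test over 9295 features, with an adjusted p (Benjamini-Hochberg over all of them) under 0.05 as the threshold. It called 0 features in either direction, which is 0% of those tested, with 210 at an unadjusted p under 0.05. DESeq2 also called 0, with 138, and limma-voom called 0, with 238. Adjusted p was 1.0 by edgeR for each of the 8 genes. Their median log2 fold change was 0.82, beside −0.03 over all features tested, and 47.2% of all features had a positive value. In 5 of the 8 genes both BHB libraries lay above both controls, beside 15.1% of all features tested. With total counts in place of TMM it was 4 of the 8, since the groups of MT-ATP8 then overlapped. Genes cut from shared precursors are not independent of each other. Higher with BHB at an unadjusted p under 0.05 were 3 of the 8, MT-CO2, MT-CO3 and MT-ATP6, beside 1.19% of all features in that direction. Neither count was particular to the 8 genes. Of the 7 other mitochondrial protein genes, 5 were higher at that unadjusted p by edgeR. In 5 of these 7 both BHB libraries lay above both controls.

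**Figure D2:**
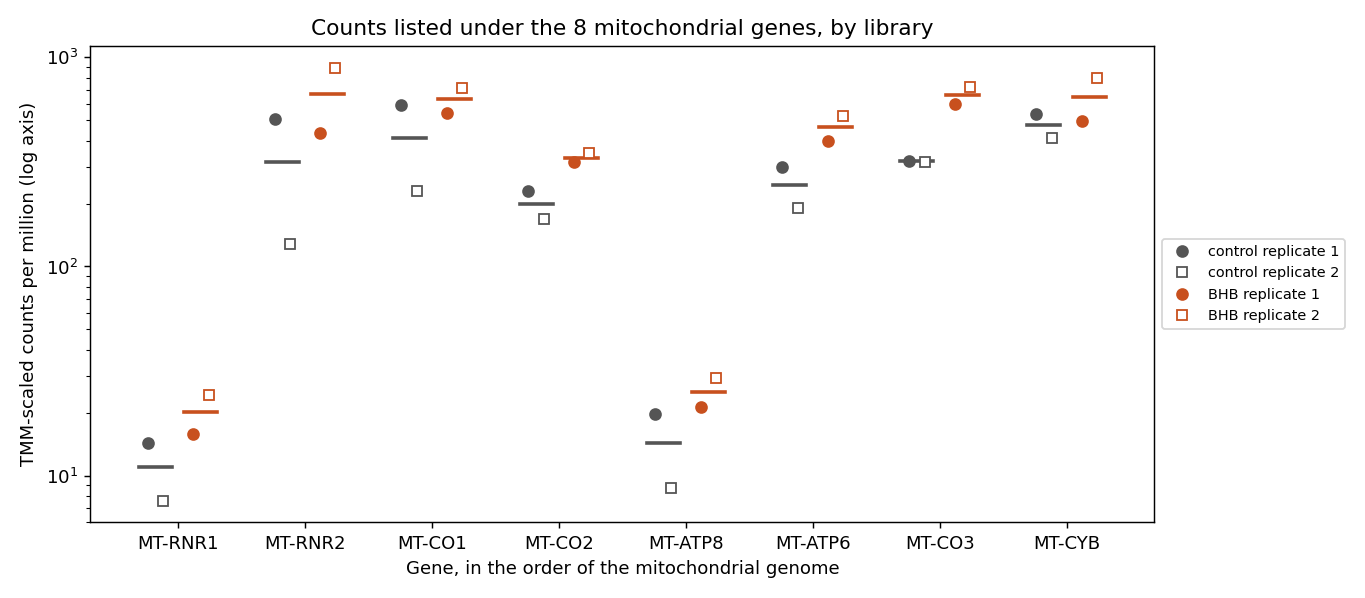
TMM-scaled CPM (log axis) listed under each of the 8 genes in each library, with a horizontal line at the mean of each group of 2. Groups overlap for MT-RNR2, MT-CO1 and MT-CYB, and MT-CO3 shows the closest controls, at 320 and 318.

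MT-CYB (chrM:14747-15887) encodes cytochrome b, the single mitochondrially encoded subunit of complex III, which passes electrons from ubiquinol to cytochrome c. Control replicates 1 and 2 held 1489 and 805 counts, BHB replicates 1 and 2 held 1130 and 1775, and later genes are given in the same order. Scaled to the libraries this was 473 ± 89.3 CPM (SD, n = 2) for controls against 648 ± 212 CPM (SD, n = 2) for BHB. BHB replicate 1, at 498 CPM, lay between the controls. Its log2 fold change of 0.45 (SE 0.29) was the smallest of the 8. Without BHB replicate 2 it was 0.08, and without BHB replicate 1 it was 0.78.

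Of the oxidase subunits, MT-CO1 and MT-CO2 carry the metal centres of complex IV and MT-CO3 completes its mitochondrially encoded core. MT-CO1 (chrM:5904-7445), which holds the site where oxygen is reduced, had control counts of 1639 and 450, against 1232 and 1595 with BHB. These were 591 and 229 CPM in controls and 543 and 717 CPM with BHB, so control replicate 1 lay between the BHB libraries. Its log2 fold change was 0.62 (SE 0.42).

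MT-CO2 (chrM:7586-8269), which takes up electrons from cytochrome c, had control counts of 638 and 332, against 713 and 772 with BHB. The groups did not overlap, at 200 ± 42.9 CPM (SD, n = 2) for controls against 331 ± 23.3 CPM (SD, n = 2) for BHB. Its log2 fold change was 0.73 (SE 0.26).

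MT-CO3 (chrM:9207-9990) had control counts of 887 and 623, against 1360 and 1608 with BHB. It was the gene with the smallest spread between controls, at 319 ± 1.52 CPM (SD, n = 2) against 661 ± 87.5 CPM (SD, n = 2) for BHB. How close its controls lay depended on the scaling. The log2 ratio between them was 0.01 with TMM and 0.33 with total counts, the smallest of the 8 genes under either. Its log2 fold change of 1.05 (SE 0.24) had the lowest unadjusted p of the 8 by edgeR, 0.0018, and an adjusted p of 1.0.

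The ATP synthase genes had like fold changes on very different counts. MT-ATP6 (chrM:8527-9207) encodes the subunit that forms the proton channel with the rotor ring. It had control counts of 826 and 375, against 905 and 1167 with BHB. That was 244 ± 75.4 CPM (SD, n = 2) for controls against 462 ± 89.1 CPM (SD, n = 2) for BHB, with no overlap, and a log2 fold change of 0.92 (SE 0.29).

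MT-ATP8, a small membrane subunit of the same enzyme, had control counts of 55 and 17, against 48 and 65 with BHB. Scaled, these were 19.8 and 8.70 CPM in controls and 21.2 and 29.2 CPM with BHB, so control replicate 1 lay just under BHB replicate 1. The log2 fold change was 0.80 (SE 0.50).

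The ribosomal RNAs had the largest standard errors of the 8 genes. MT-RNR1 (chrM:648-1601), the RNA of the small subunit, had control counts of 40 and 15, against 36 and 54 with BHB. At 14.4 and 7.60 CPM in controls and 15.9 and 24.3 CPM with BHB the groups did not overlap, and the log2 fold change was 0.84 (SE 0.51).

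MT-RNR2 (chrM:1671-3229), the RNA of the large subunit, had control counts of 1409 and 250, against 989 and 1986 with BHB. It stood at 318 ± 269 CPM (SD, n = 2) for controls against 665 ± 323 CPM (SD, n = 2) for BHB. The groups overlapped, as BHB replicate 1, at 436 CPM, lay between the controls at 508 and 127 CPM. Its log2 fold change of 1.06 was the largest of the 8 and also had the largest standard error, 0.59.

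**Figure D3:**
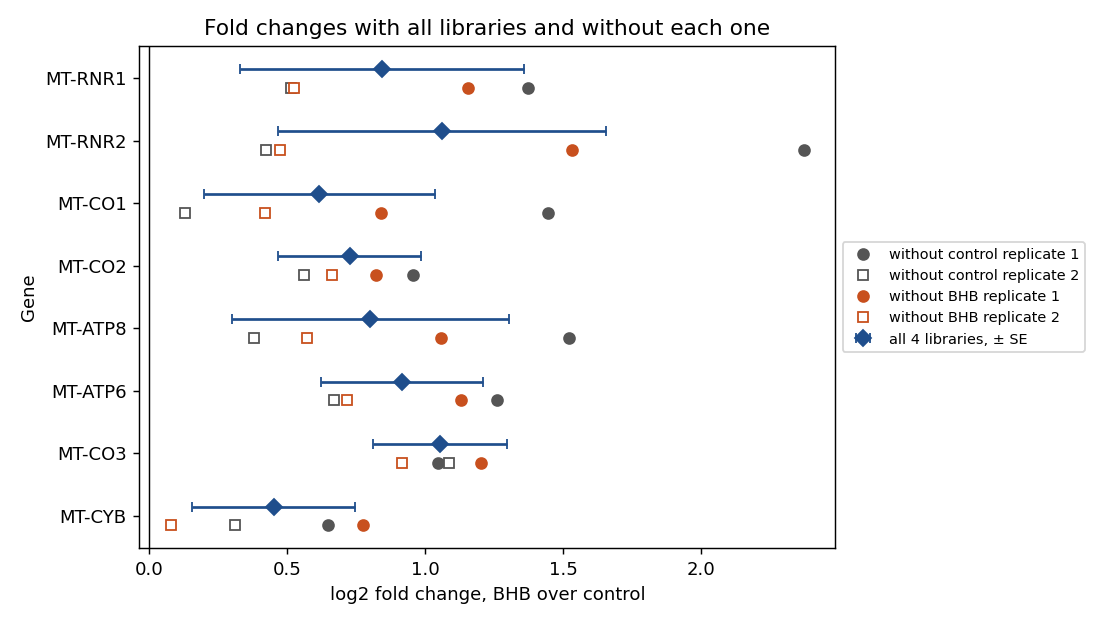
Log2 fold change of BHB over control for each of the 8 genes from edgeR with all 4 libraries (diamonds, bars show ± SE) and without each library in turn. All values are above 0, those of MT-CO3 lie between 0.92 and 1.20, and those of MT-RNR2 between 0.43 and 2.37.

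Which of the 8 genes were called depended on the library left out. Without control replicate 1, edgeR called all 8 genes higher with BHB, beside 5.84% of all features tested, and their median log2 fold change was 1.32. Without control replicate 2, it called 5 (MT-CYB, MT-CO2, MT-CO3, MT-ATP6 and MT-RNR2), beside 9.43% of all features, with a median of 0.47. Without BHB replicate 1 or without BHB replicate 2 it called 0 of the 8 and 0 features in all, with 15 and 13 features at an unadjusted p under 0.05. In such fits the lone library is assumed to vary like the pair of the other group, and the controls differed from each other more than the BHB libraries did. MT-CO3 changed least, with 1.05 without control replicate 1 and 1.09 without control replicate 2. MT-CO1 went from 1.45 to 0.13, MT-RNR2 from 2.37 to 0.43, MT-ATP8 from 1.52 to 0.38 and MT-RNR1 from 1.37 to 0.51, in the same order.

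Every one of the 8 genes was higher in control replicate 1 than in control replicate 2 after TMM scaling, by a median log2 ratio of 0.78. Over all features tested the median ratio was −0.08 and the median absolute ratio 0.60. The ratio was 1.99 for MT-RNR2, 1.36 for MT-CO1, 1.19 for MT-ATP8, 0.92 for MT-RNR1, 0.64 for MT-ATP6, 0.44 for MT-CO2, 0.39 for MT-CYB and 0.01 for MT-CO3. The 6 heavy-strand complex I genes, which lie among them on the same strand, went the other way, from −0.27 for MT-ND1 to −1.16 for MT-ND3. MT-ND6, the light-strand complex I gene, had 0.61, within the range of the 8 genes. The 8 genes were higher in control replicate 1 under all 4 scalings tried, while with total counts 1 of the 6 complex I genes, MT-ND1, turned to 0.05. All 8 were highest in BHB replicate 2 and lowest in control replicate 2. Control replicate 2 also had the fewest features with a count, 16169 against 17490 to 18218 in the other libraries. Its TMM factor was the lowest, 0.886 against 1.01 to 1.10. Of the markers, EPCAM had its lowest count there, 4, while KRT8 had its highest, 12028. Whether this bears on the 8 genes was not tested.

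**Figure D4:**
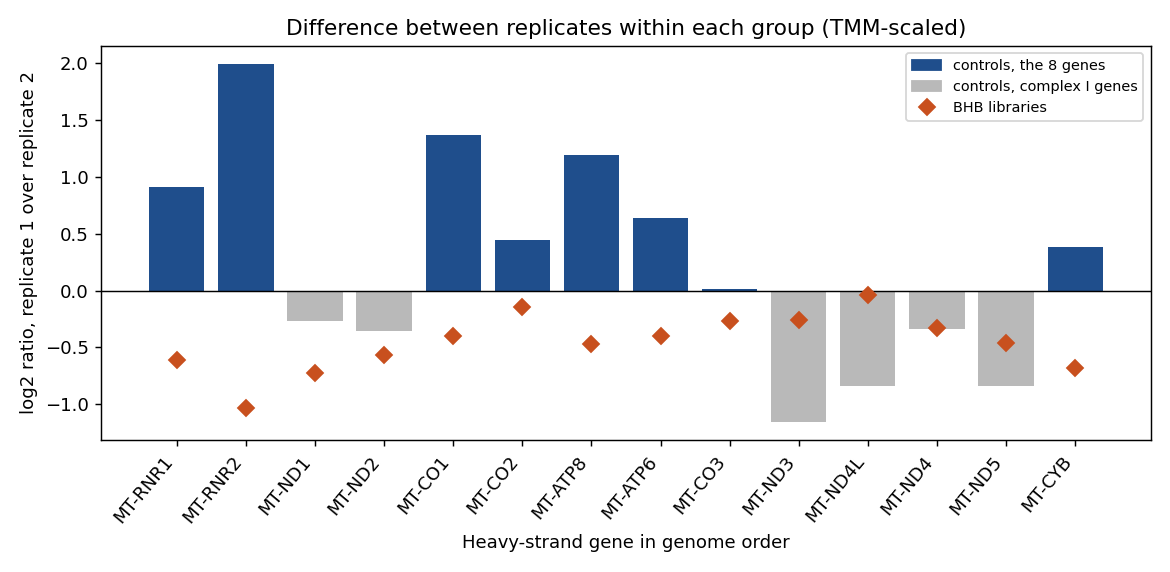
Log2 ratio of TMM-scaled counts in replicate 1 over replicate 2 for the heavy-strand genes in genome order, with bars for the controls (the 8 genes in blue, complex I genes in grey) and diamonds for the BHB libraries. The 8 genes have bars at or above 0.01 and the heavy-strand complex I genes bars at or below −0.27. MT-ND6, on the light strand, is not shown.

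A ratio within each library, which needs no scaling between libraries, showed the same split. The 6 protein genes held 0.832 counts per count of the 6 heavy-strand complex I genes in control replicate 1, and 0.350 in control replicate 2. With BHB it was 0.460 and 0.448, between the controls. For the ribosomal RNAs the ratio was 0.218 and 0.0357 in controls and 0.0875 and 0.131 with BHB, again between the controls. For these sums, relative to the complex I genes, BHB and control differed by less than the controls did from each other.

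As shares of all mitochondrial counts, the 8 genes together held 20.9% and 12.2% in controls and 17.5% and 18.6% with BHB. The BHB values lay between the controls. MT-CO3 was at 2.65% ± 0.00707 in controls and 3.52% ± 0.287 with BHB (SD, n = 2), above both controls in both BHB libraries. This held for no other of the 8 genes, whose groups overlapped in this share. MT-CYB was at 3.93% ± 0.733 in controls and 3.37% ± 0.402 with BHB (SD, n = 2).

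Nuclear copies were searched for counts that could belong to the 8 genes. MTATP6P1 had control counts of 90 and 105, against 191 and 199 with BHB, with no overlap of the groups. Its log2 fold change was 1.02 (SE 0.32), with an adjusted p of 1.0 by edgeR. Between the controls its log2 ratio was −0.72, the reverse of MT-ATP6. Of the other chromosome 1 copies of the 8 genes, MTCO1P12, which is 98.6% identical to MT-CO1, had 0 to 5 counts per library, MTCO2P12 0 to 4, MTCO3P12 0 to 7 and MTATP8P1 0. The 13 genes like MT-RNR2 in the nucleus had 0 to 4 counts per library in all.

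Nuclear genes that work with the 8 genes had no call in either direction by edgeR, but neither had any of the 9295 features tested. The test covered 6 of 9 complex III, 2 of 14 complex IV and 15 of 19 complex V subunits. The partner subunits of complexes III, IV and V, 42 genes in all, held summed counts of 2202 and 796 in controls and 1173 and 1178 with BHB. Like the 8 genes they were higher in control replicate 1 than in control replicate 2. Both BHB libraries lay between the controls, also as shares of the library, at 0.0859% and 0.0356% in controls and 0.0516% and 0.0527% with BHB. By summed counts, BHB replicate 1 lay between the controls for the 8 genes too. As a share it lay above both controls, narrowly, at 0.282% against 0.272% in control replicate 1. The part of these differences between libraries in the values above was not tested. Among 6 tested complex III subunits the median log2 fold change was −0.46, with CYC1, the cytochrome c1 gene, at 0.01 (SE 0.32) and UQCRB at −0.31 (SE 0.71). The 2 tested complex IV subunits were COX4I1 at 0.02 (SE 0.35) and COX5B at 0.21 (SE 1.08). Among 15 tested complex V subunits the median was −0.20, with ATP5PB, a stalk subunit, at −0.16 (SE 0.28) and ATP5F1B, the catalytic beta subunit, at −0.36 (SE 0.55).

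Genes that build these complexes or make and translate mitochondrial RNA were likewise not called, like every feature tested. The test covered 14 of 32 assembly genes and 49 of 81 mitochondrial ribosomal proteins. Of the genes of mitochondrial DNA transcription and replication it covered 11 of 16, and of RNA processing, decay and modification 9 of 26. The median log2 fold change was 0.10 over 14 tested assembly genes, with COX11, a copper chaperone of complex IV, at 0.08 (SE 0.30) and UQCC2, an assembly factor of complex III, at −0.11 (SE 0.24). It was −0.04 over 49 tested mitochondrial ribosomal proteins, the partners of MT-RNR1 and MT-RNR2, with MRPL51 at −0.30 (SE 0.26) and MRPL34 at −0.47 (SE 0.25). Over 11 tested genes of mitochondrial DNA transcription and replication it was −0.27, with POLG, the replicative polymerase, at −0.28 (SE 0.28) and PRIMPOL at −0.29 (SE 0.29). Over 9 tested genes of mitochondrial RNA processing, decay and modification it was −0.15, with SLIRP, which stabilises mitochondrial messenger RNAs, at −0.17 (SE 0.30) and PRORP, the nuclease that cuts transfer RNA ends, at −0.05 (SE 0.31).

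The other mitochondrial genes shared the direction. All 7 complex I genes had a positive log2 fold change, with a median of 0.91, from 0.39 for MT-ND6 to 1.14 for MT-ND3, and 6 of 7 tested transfer RNAs did, with a median of 0.40. None was called by edgeR, nor was any other feature, and only 7 of 22 transfer RNA genes were tested.

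The features off the mitochondrial genome most like the 8 genes over the 4 libraries were found by the Euclidean distance of centred log2 CPM from the median profile of the 8, among 8375 features with a mean of at least 5 CPM. They were MRGBP, a subunit of a histone acetyltransferase complex, at 0.0764, GALNT11, a glycosyltransferase of mucin-type glycosylation, at 0.100, RP11-363J20.1 at 0.105, GALNS, a lysosomal sulfatase, at 0.134 and CCP110, a centriole cap protein, at 0.134. The median distance over these features was 1.26. Within the 8 genes, MT-RNR1 lay nearest to their shared profile, at 0.0927, and MT-RNR2 farthest, at 1.03. All 5 features had 5 to 53 counts per library, and with 4 libraries such a likeness is a description only.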

How the data were processed

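RNA sequencing libraries of C4-2 cells, 2 control and 2 with BHB, were analysed from a table of raw counts per feature that the authors deposited, with no normalization, beside another deposited column, the length of each feature in bases. Per the submitters' processing notes, the tools were featureCounts 2.0.3, HISAT2 2.2.1, limma and edgeR, and the builds hg38 and GRCh38. Totals were 2233711 to 2565080 counts per library.

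Features were filtered by filterByExpr, scaled by TMM and tested with the robust quasi-likelihood F-test in edgeR 4.0.16 (R 4.3.3), with Benjamini-Hochberg adjustment over 9295 features and a threshold of 0.05. The standard error (SE) is the log2 fold change over the root of the F statistic. CPM are TMM-scaled; shares use all counts. DESeq2 1.42.0, limma 3.58.1, other scalings and filters, a replicate block and each library left out were alternatives. The fit was tested on simulated data. Replicates differed beyond sampling noise (chi-square per degree of freedom 12.6 for controls and 2.44 for BHB). Positions and sequences are from GENCODE 29, whose lengths of the 8 genes equal the deposited ones; copies were found with BLAST+ 2.17.0. Another cell marker is not reported here. The members, gene lists and windows were chosen with earlier results of these data known. All 8 genes were named, with the 2 tested members of highest mean CPM of each other list and the 5 features with the most similar profile (log2 CPM with a prior count of 2). The ratio to the complex I genes and the comparison of control libraries were added after values were seen.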

Additional observations from a re-analysis of the deposited data

How the results depend on the processing

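Counts of called features were 0 higher and 0 lower, with 0 of the 8 genes called, under RLE, upper-quartile and total-count scaling, both other filters, DESeq2, limma-voom and the replicate block. Under the block, in which libraries share only a number (correlation of their deviations −0.0184 over 9295 features), the median log2 fold change of the 8 genes was 0.87, with 0 features called and 166 at an unadjusted p under 0.05. Over these alternatives the fold changes of the 8 genes kept their sign and their side of the threshold in 64 of 64 values. With each library left out in turn, edgeR called 0 to 1035 features higher and 0 to 791 lower, 0 to 8 of the 8 genes called and a median log2 fold change of 0.47 to 1.32. The log2 fold change of the summed share was 0.78, with 0.33 to 1.42 when 1 library was left out, 0.78 as a ratio to the rest of the library and 0.13 as a share of mitochondrial counts. The last is smaller since the mitochondrial total was higher with BHB too. The mean share of all mitochondrial features in the library was 1.60 times that of controls, beside 1.71 times for the 8 genes. Why the control libraries differed was not tested. Counting error is largest for MT-RNR1 and MT-ATP8, which had 15 to 65 counts per library.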
